A study of Mus musculus with 6 samples.

Results

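Potassium channel genes were taken from the deposited expression table as all protein-coding mouse genes with a symbol that starts with Kcn, the root used for the pore-forming and the accessory subunits. Of 55298 genes in the table, 94 met this rule. Kcna7, Kcnk16 and Kcnmb3 held 0 in all 6 samples and were dropped, which left 91 genes. These were 15 inward rectifiers (Kcnj), 39 voltage-gated subunits (Kcna to Kcnd, Kcnf to Kcnh, Kcnq, Kcns and Kcnv), 13 two-pore leak channels (Kcnk), 8 calcium-activated channels and their relatives (Kcnn, Kcnma, Kcnt and Kcnu) and 16 accessory subunits or regulators (Kcnab, Kcne, Kcnip, Kcnmb and Kcnrg). Apart from the removal of genes at 0 in every sample, the choice used no measured value.

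RNA came from brain cells of mice, captured on magnetic beads through antibodies to O4, a surface antigen of late oligodendrocyte precursors and oligodendrocytes, and the cells were not put into culture. All mice were of the strain labelled c56Bl/6j. One group was immunised with the peptide MOG 35-55 of myelin oligodendrocyte glycoprotein, which induces experimental autoimmune encephalomyelitis (EAE), a model of inflammatory demyelination, and the control group received ovalbumin (OVA), a protein that is not part of the brain. Both were killed at the maximum of disease. RNA of 6 EAE mice made 3 pools of 2 mice each. RNA of 4 OVA mice made 3 samples: OVA replicates 1 and 3 held 1 mouse each and OVA replicate 2 held 2 mice. The spread between samples is therefore a spread between pools and single mice, and age, sex and batch were not given in the labels.

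Potassium channels let potassium ions cross the membrane and set the resting potential. Inward rectifiers and two-pore channels are open near rest, and in glia they hold the membrane potential and help take up the potassium that axons release. Voltage-gated channels end action potentials, calcium-activated channels couple internal calcium to the membrane potential, and accessory subunits change the gating and the transport of the pores. In oligodendrocytes the inward rectifier of Kcnj10 is known for clearing potassium around myelinated axons, and in immune cells the channels of Kcna3 and Kcnn4 are known for sustaining calcium entry.

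Values are on the rlog scale, a regularised log2 of library-scaled read counts made by the authors, on which a difference of 1 is a fold of 2 and low genes are shrunk towards their own mean. The median over all tested genes ran from 8.88 to 8.96 across the samples, and the depth of each sample is unknown because the table holds no counts. Markers of other cell types were measured beside those of oligodendrocytes. Mature oligodendrocyte markers had a mean rlog value of 15.21 to 15.79 in the 6 samples, astrocyte markers had 12.29 to 13.56, homeostatic microglia markers 10.53 to 11.46 and endothelial markers 12.09 to 13.31. None of the markers was at 0 in any sample, but with values shrunk towards the gene's mean this need not mean reads in every sample. OVA replicate 3 stood apart with a neutrophil marker mean of 11.93, against 7.64 to 8.57 in the other 5 samples. The transcript Xist, made from the inactive X chromosome, was at 13.50 to 14.16 in EAE and 7.39 to 7.63 in OVA (limma adjusted p = 2.02e-05), and the Y-linked Ddx3y was lower in EAE (9.44 to 10.18 against 11.29 to 11.46), so sex composition and treatment cannot be told apart in any comparison that follows.

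Of the 91 potassium channel genes, 73 had a mean rlog value of at least 3 over the 6 samples and were tested. The 18 others lay below, the nearest being Kcnf1 at 2.97 and Kcnh4 at 2.93, and the lowest tested genes were Kcnj15 at 3.10 and Kcng1 at 3.30. In a limma model fitted to all 18161 tested genes, with Benjamini-Hochberg adjustment over all of them, 2 of the 73 fell in EAE: Kcnj16, an inward rectifier, and Kcnk1, a two-pore channel. That is 2.74% of the potassium channel genes, against 0.666% of all tested genes lower and 2.38% called in either direction. None rose, against 1.72% of all tested genes. At an unadjusted limma p under 0.05, 6 genes were higher and 11 lower (23.3% in all), against 9.17% and 7.15% of all genes (16.3% in all). The count of genes that rose was also 0 under 6 of the 8 other settings that kept all samples.

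The family as a whole was centred near 0, with 31 genes above 0 and 42 below, against 49.3% and 50.7% of all tested genes. Differences of EAE minus OVA ran from -0.69 for Kcnt1 to 0.60 for Kcnn4, and no gene reached a difference of 1. The median was -0.03 over the 73 genes and -0.0024 over all tested genes. Of the 73 genes, 50 differed by less than 0.25. The median absolute difference was 0.158 for the potassium channel genes and 0.106 for all tested genes. EAE and OVA did not overlap for 17 of the 73 genes, 6 higher in EAE (8.22%, against 12.1% of all genes) and 11 lower (15.1%, against 10.8%). In either direction this was 23.3%, against 22.8% of all genes. The medians of the subfamilies were -0.09 for inward rectifiers, -0.02 for voltage-gated genes, -0.03 for two-pore channels, -0.0029 for calcium-activated genes and -0.09 for accessory genes.

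**Figure D1:**
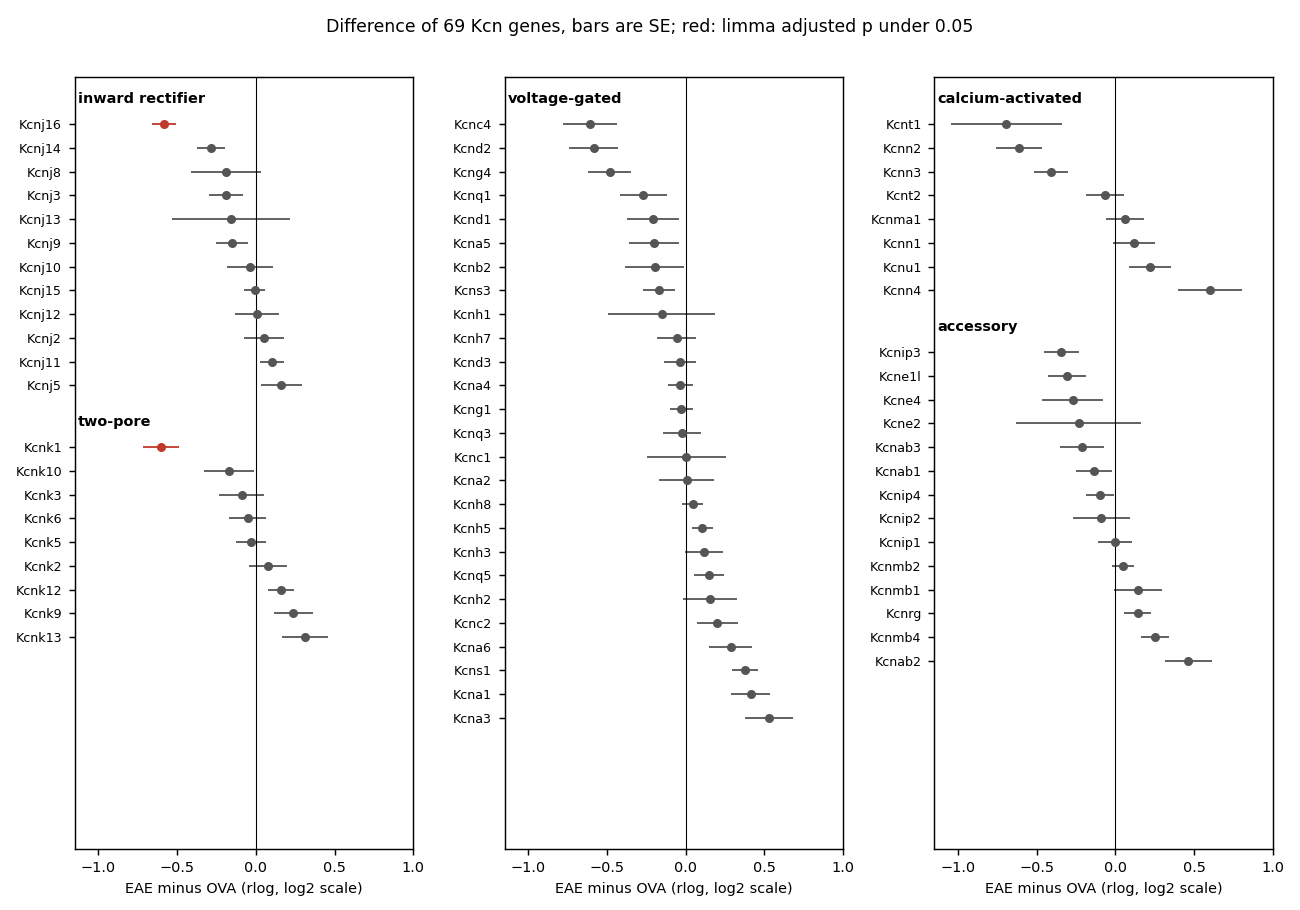
Difference of EAE minus OVA on the rlog (log2) scale for 69 of the 73 tested potassium channel genes, 3 samples in each group, grouped by subfamily and ordered by size. Points are the differences and bars their standard errors from limma. Only Kcnj16 and Kcnk1, in red, had an adjusted p under 0.05, and the values span -0.69 to 0.60.

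Levels between genes were compared per length, as the mean rlog value less the log2 of the exon length in kilobases. On that scale Kcnj10 had the highest level of the family, 12.35, and Kcna6 followed with 10.66. Next came Kcnj13 (10.03), Kcna1 (9.68), Kcnk1 (9.35), Kcnk13 (9.34) and Kcne2 (9.26). The lowest tested gene was Kcnh7, at 0.15. The genes with the highest levels were therefore spread over inward rectifiers, voltage-gated channels, two-pore channels and an accessory subunit.

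Sequence is shown for the upstream region of the genes the results turn on: the pair that fell, and Kcnj10, which had the highest level and did not pass the test. Each is the 250 bases before a RefSeq transcript start in the build GRCm38.p6, on the plus strand, 5′ to 3′. Capitals mark matches to CANNTG (the E-box) or TTCNNNGAA (a STAT-type element). Kcnj16 has 4 such RefSeq windows and the one farthest upstream is given (chr11:110967783-110968032). The others are at chr8:125994852-125995101 for Kcnk1 and chr1:172340960-172341209 for Kcnj10. The Kcnk1 window does not reach the GENCODE M21 gene start at 125995170. The bases after its RefSeq start were not found in a GENCODE transcript of Kcnk1, unlike those of the Kcnj16 and Kcnj10 windows shown.
Kcnj16: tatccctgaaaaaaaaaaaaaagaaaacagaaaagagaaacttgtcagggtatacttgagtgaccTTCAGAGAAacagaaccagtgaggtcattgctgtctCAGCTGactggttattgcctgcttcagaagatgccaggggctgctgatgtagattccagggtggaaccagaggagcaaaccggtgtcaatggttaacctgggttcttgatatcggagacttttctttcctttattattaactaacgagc
Kcnk1: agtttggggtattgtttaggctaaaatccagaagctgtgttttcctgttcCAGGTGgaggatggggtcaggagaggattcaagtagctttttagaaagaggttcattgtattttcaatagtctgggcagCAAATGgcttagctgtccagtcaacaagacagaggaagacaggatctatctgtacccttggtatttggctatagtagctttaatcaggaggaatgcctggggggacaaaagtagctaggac
Kcnj10: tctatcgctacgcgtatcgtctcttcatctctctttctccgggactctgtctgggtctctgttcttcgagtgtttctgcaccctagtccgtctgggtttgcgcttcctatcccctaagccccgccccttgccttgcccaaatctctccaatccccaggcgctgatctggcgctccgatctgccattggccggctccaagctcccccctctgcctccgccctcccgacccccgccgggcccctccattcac

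The windows shown differed in composition. The Kcnj16 window had a GC content of 42.8% with 3 CpG dinucleotides, the Kcnk1 window 44.4% with 0, and the Kcnj10 window 62.0% with 17. The median over 32817 RefSeq windows of this length was 52.4% GC and 6 CpG. The E-box letters CANNTG, which read the same on both strands as a pattern, occurred once in the Kcnj16 window shown, 2 times in the Kcnk1 window and not in the Kcnj10 window. They were present in 66.2% of all windows and in 67.0% of the 94 windows that belong to 69 of the potassium channel genes. TTCNNNGAA, also its own reverse complement as a pattern, was present in the Kcnj16 window shown, in 7.01% of all windows and in 7.45% of the potassium channel windows. TATAAA, searched on both strands, was in none of the 3 windows shown, in 12.4% of all windows and in 3.19% of the potassium channel windows. The other Kcnj16 windows, not shown, had 47.6%, 51.2% and 44.8% GC with 7, 4 and 1 CpG, none held CANNTG or TTCNNNGAA, and 1 of them held TATAAA, so the description of Kcnj16 depends on the window. These are matches of letters only, and no motif overlaps another in the sequences shown.

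Among the inward rectifiers, Kcnj16 fell in EAE while Kcnj10 differed little between the groups. Kcnj16 encodes Kir5.1, which forms mixed channels with the Kcnj10 product Kir4.1, and it lies at chr11:110968033-111027968 (ENSMUSG00000051497.15). Its rlog values were 9.51, 9.35 and 9.496 in EAE replicates 1 to 3 and 10.03, 10.06 and 10.01 in OVA replicates 1 to 3. All EAE pools lay below all OVA samples, and the spread within each group was small. The difference was -0.58 ± 0.076 (SE, n = 3 and 3), a fold of 1.495, with a limma adjusted p of 0.0152. The adjusted p rose to 0.0605 without EAE replicate 1, to 0.0894 without EAE replicate 2 and to 0.0777 without OVA replicate 2, with differences of -0.61 to -0.53 over all 6 omissions. In bulk samples, fewer cells of a type and less RNA per cell cannot be told apart.

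Kcnj10, the main inward rectifier of glia, was at 14.82, 14.66 and 14.82 in EAE and 14.86, 15.01 and 14.54 in OVA. The EAE pools lay inside the range of the OVA samples, and OVA replicate 3 was the lowest of the 6. The difference was -0.04 ± 0.145 (limma adjusted p = 0.934), and it turned positive without EAE replicate 2 or without OVA replicate 2. Kcnj16 minus Kcnj10 within a sample was -5.32, -5.30 and -5.33 in EAE and -4.83, -4.95 and -4.53 in OVA. The EAE pools were almost identical in this difference of rlog values and lay below every OVA sample. An exact permutation test, two-sided, gave p = 0.1, the smallest that 3 against 3 allows, and 0.133 after Benjamini-Hochberg adjustment over 4 such pairs, which were chosen after their values were seen.

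Kcnj2, which encodes a strong inward rectifier, is the neighbour of Kcnj16 on the same strand, at chr11:111066164-111076821. Its values of 9.62, 9.91 and 9.76 in EAE overlapped those of 9.55, 9.64 and 9.95 in OVA, and the difference was 0.05 (limma adjusted p = 0.885). Within samples, Kcnj16 minus Kcnj2 was -0.11, -0.56 and -0.26 in EAE and 0.48, 0.43 and 0.06 in OVA (exact permutation p = 0.1). Every EAE pool lay below every OVA sample in this difference of rlog values, as for Kcnj16 alone. The exact permutation p was 0.133 after adjustment over the 4 pairs.

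The rest of the inward rectifiers did not pass the test, and 8 of the 12 tested genes lay below 0, against 50.7% of all genes. Kcnj14, a strong rectifier of low level, was at 4.11 to 4.33 in EAE and 4.35 to 4.59 in OVA, a difference of -0.28 with groups that did not overlap (limma adjusted p = 0.165). Kcnj13, known for the potassium conductance of choroid plexus epithelium, varied widely within OVA, from 9.57 in replicate 1 to 11.14 in replicate 3, and stood at 9.91 to 10.56 in EAE. Its difference was -0.16 ± 0.373 (adjusted p = 0.877), and it overlaps Gigyf2 on the opposite strand. Kcnj8, the pore of the potassium channel that ATP closes in vessels, was at 6.05 to 6.59 in EAE and 6.07 to 6.87 in OVA (-0.19, adjusted p = 0.724). Its partner Abcc9, the sulphonylurea receptor subunit, differed by -0.53 (adjusted p = 0.299). The subunits Kcnj3, Kcnj5 and Kcnj9, which form channels opened by G proteins, had differences of -0.19, 0.16 and -0.15, none past the test.

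Of the two-pore channels, Kcnk1 fell and the other 8 tested genes did not pass the test. Kcnk1 encodes TWIK1, a weak inward rectifier of the leak type that is abundant in astrocytes, and lies at chr8:125995170-126030685 (ENSMUSG00000033998.9). Its rlog values were 10.31, 10.11 and 10.19 in EAE and 10.61, 10.79 and 11.02 in OVA. The groups did not overlap, and OVA replicate 1 was the OVA sample nearest to the EAE pools. The difference was -0.60 ± 0.113 (SE, n = 3 and 3), a fold of 1.52, with a limma adjusted p of 0.0413. This call was lost when an EAE pool was left out (adjusted p = 0.114, 0.177 and 0.118 for pools 1 to 3) or OVA replicate 2 (0.143), and also with no filter on low values (0.0587) and with no intensity trend (0.0514).

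Kcnk2, a mechanically gated leak channel also found in astrocytes, was at 8.14, 8.12 and 8.22 in EAE and 7.95, 7.99 and 8.31 in OVA, a difference of 0.08 (limma adjusted p = 0.794). Kcnk1 minus Kcnk2 within a sample was 2.174, 1.99 and 1.97 in EAE and 2.66, 2.80 and 2.71 in OVA. This within-sample difference was smaller in every EAE pool than in any OVA sample, as was Kcnk1 alone. The exact permutation test gave p = 0.1, the smallest that 3 against 3 allows, and 0.133 after adjustment over the 4 pairs.

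Both genes that fell differed between the groups in the same direction as the markers of several other cell types. All 12 astrocyte markers lay below 0, 7 of the 12 fell by limma, and their mean level was 12.29 to 12.67 in EAE and 13.19 to 13.56 in OVA, with a median difference of -0.85. The number that fell was 4, 1 and 5 without EAE replicates 1, 2 and 3, and 4, 2 and 9 without OVA replicates 1, 2 and 3. Kcnj16 and Kcnk1 differed in the same direction, by -0.58 and -0.60. The part of these cells in the fall of Kcnj16 and Kcnk1 was not tested. Within OVA, the astrocyte marker mean was highest in replicate 1 and Kcnk1 in replicate 3. Kcnj16 differed little between the OVA samples, at 10.03, 10.06 and 10.01 in replicates 1 to 3. The endothelial and the pericyte and smooth muscle marker means were highest in OVA replicate 3, and the homeostatic microglia mean in OVA replicate 1.

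Kcnk13, a leak channel known from microglia, was at 11.22, 10.95 and 11.22 in EAE and 10.88, 11.06 and 10.51 in OVA. OVA replicate 3 was the lowest, the groups overlapped, and the difference was 0.31 ± 0.148 (limma adjusted p = 0.355). Over the same samples the homeostatic microglia markers were lower in EAE, at 10.53 to 10.97 against 11.14 to 11.46, and mature oligodendrocyte markers were lowest in OVA replicate 3. Kcnk6, a leak channel of macrophages and other cells, differed by -0.05 (adjusted p = 0.875). Kcnk9, an acid-sensitive leak channel, was at 5.18 to 5.37 in EAE and 4.83 to 5.29 in OVA (0.24, adjusted p = 0.395).

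**Figure D2:**
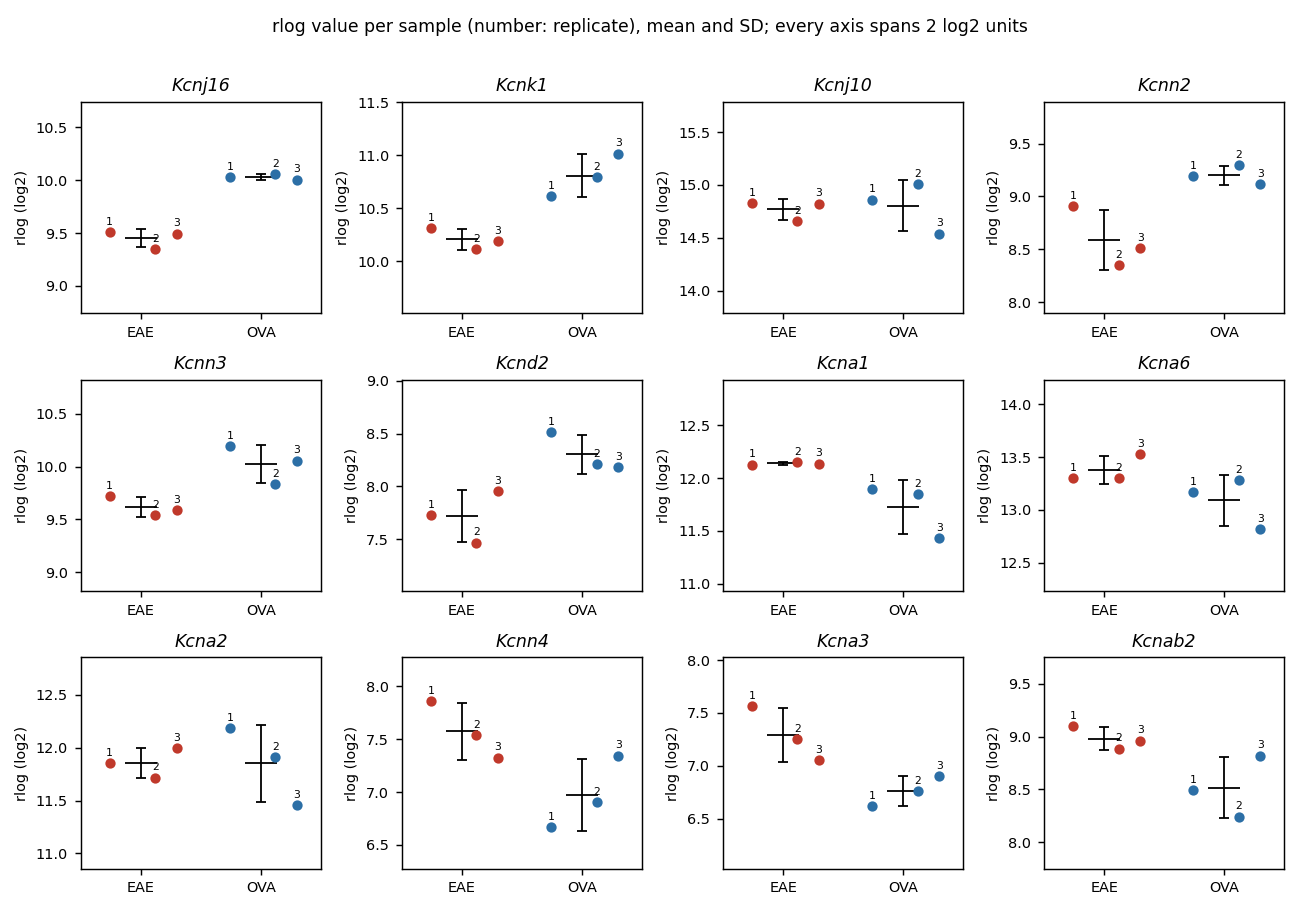
Values of 12 potassium channel genes on the rlog (log2) scale, EAE in red and OVA in blue, 3 samples each with the replicate number above its point, and the mean and SD in black. Each axis spans 2 log2 units around the gene's mean. EAE lies below OVA without overlap for Kcnj16, Kcnk1, Kcnn2, Kcnn3 and Kcnd2, above it without overlap for Kcna1, Kcna6, Kcna3 and Kcnab2, and overlaps it for Kcnj10, Kcna2 and Kcnn4.

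None of the 8 calcium-activated genes or their relatives passed the limma test, yet they held both ends of the family's range. At an unadjusted limma p under 0.05, 1 was higher (Kcnn4, 12.5% of the 8) and 2 lower (Kcnn2 and Kcnn3, 25%). Among all tested genes 9.17% were higher and 7.15% lower at that p. Kcnn2 and Kcnn3 encode small-conductance channels, which calmodulin opens when calcium rises. Kcnn2 was at 8.91, 8.35 and 8.51 in EAE and 9.19, 9.30 and 9.12 in OVA, and all EAE pools lay below all OVA samples. Its difference was -0.61 ± 0.146 (limma adjusted p = 0.0854), the nearest to the threshold among the genes lower in EAE that did not pass. Kcnn3 was at 9.72, 9.54 and 9.59 in EAE and 10.19, 9.83 and 10.06 in OVA, again without overlap (-0.41, adjusted p = 0.111). Leaving out OVA replicate 3 did not bring either past the test, and the adjusted p over the 6 omissions reached 0.257 for Kcnn2 and 0.330 for Kcnn3.

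Kcnn4, the intermediate-conductance channel of lymphocytes, macrophages and microglia, was at 7.86, 7.54 and 7.33 in EAE and 6.67, 6.91 and 7.34 in OVA. OVA replicate 3 was slightly above the lowest EAE pool, so the groups overlapped, and the difference of 0.60 ± 0.203 had a limma adjusted p of 0.196. Without OVA replicate 3 the difference was 0.79 with an adjusted p of 0.0351. Leaving out OVA replicate 3 also raised the calls among all tested genes, from 312 to 850 higher and from 121 to 346 lower. Kcnt1, a sodium-activated channel, had the most negative difference of the family and also a wide spread. It was at 10.83, 10.05 and 10.11 in EAE and 11.78, 10.92 and 10.38 in OVA, and EAE replicate 1 exceeded OVA replicate 3. Its difference was -0.69 ± 0.353 (adjusted p = 0.386), moving between -1.02 and -0.32 with the sample left out. Kcnma1, the large-conductance channel opened by calcium and voltage together, differed by 0.06 (adjusted p = 0.844).

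None of the 30 tested voltage-gated genes passed the limma test in either direction. At an unadjusted limma p under 0.05, 3 were higher (10%, against 9.17% of all tested genes) and 4 lower (13.3%, against 7.15%). The Kv1 subunits Kcna1, Kcna2 and Kcna6, which gate delayed rectifier currents, had the highest levels per length of this group (9.68, 8.28 and 10.66). Kcna1 was at 12.13, 12.15 and 12.14 in EAE and 11.90, 11.85 and 11.43 in OVA. The EAE pools were almost equal and lay above all OVA samples, of which replicate 3 was the lowest (0.41 ± 0.125, limma adjusted p = 0.154). Kcna6 was at 13.31, 13.30 and 13.53 in EAE and 13.17, 13.28 and 12.82 in OVA, with groups that did not overlap by a narrow margin (0.29, adjusted p = 0.351). Kcna2 was at 11.86, 11.72 and 11.998 in EAE and 12.18, 11.91 and 11.46 in OVA (0.01, adjusted p = 0.992).

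OVA replicate 3 was the lowest of the 6 samples for Kcna1, Kcna2, Kcna6, Kcnk13 and Kcnj10. The mature oligodendrocyte markers were lowest there as well, at a mean of 15.21 against 15.57 to 15.79 in the other 5 samples. None of the 12 markers of this list passed the test, and 11 lay above 0. The part of this sample's makeup in the differences of these genes was not tested, and without it the difference was 0.26 for Kcna1 and 0.15 for Kcna6. Over the 73 genes OVA replicate 3 was the highest sample for 18 and the lowest for 18, 24.7% each, against 25.5% and 25.2% of all tested genes.

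Kcna3, the voltage-gated channel of T cells and activated microglia, was at 7.57, 7.25 and 7.05 in EAE and 6.62, 6.76 and 6.90 in OVA. All EAE pools lay above all OVA samples, with a difference of 0.53 ± 0.151 (limma adjusted p = 0.133). Kcna3 neighbours Kcna2 on chromosome 3. Kcna3 minus Kcna2 within a sample was -4.29, -4.47 and -4.94 in EAE and -5.56, -5.15 and -4.56 in OVA, with overlap between the groups (exact permutation p = 0.2). General myeloid markers were higher in EAE in the same samples, with 10 of 10 above 0, 5 of them past the test, and means of 11.80 to 11.98 against 10.84 to 11.26. T cell markers were at 5.71 to 5.84 against 5.08 to 5.25, with 6 of 10 past the test, and monocyte and macrophage markers at 10.10 to 10.78 against 8.36 to 9.51, with 4 of 10 past it. These counts moved with the sample left out. Without EAE replicate 2 they were 2 for general myeloid, 1 for T cell and 1 for monocyte and macrophage markers, without OVA replicate 2 also 2, 1 and 1, and without OVA replicate 3 they were 8, 9 and 9. Without EAE replicate 1 they were 2, 4 and 3, without EAE replicate 3 they were 3, 3 and 4, and without OVA replicate 1 they were 3, 3 and 3. The part of these cells in the values of Kcna3 and Kcnn4 was not tested.

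Several voltage-gated genes known from neurons had lower values in EAE without passing the test. Kcnd2, which carries the fast A-type current, was at 7.73, 7.47 and 7.96 in EAE and 8.51, 8.21 and 8.19 in OVA (-0.58 ± 0.153, limma adjusted p = 0.109). Kcnc4, a high-threshold channel, was at 7.90, 7.49 and 7.79 in EAE and 8.65, 8.23 and 8.11 in OVA (-0.61, adjusted p = 0.130), and Kcng4, a silent subunit that modifies other pores, was at 6.79 to 6.85 in EAE and 7.09 to 7.57 in OVA (-0.48, adjusted p = 0.127). None of these groups overlapped. Neuron markers did not separate the groups, at 6.90 to 7.38 in EAE and 6.83 to 7.22 in OVA, and precursor markers went both ways. Of the 9 precursor markers 6 lay above 0, with a median of 0.30, and 2 fell (Ptprz1 and Tmem100), both missing the threshold when any sample other than OVA replicate 3 was left out. Without OVA replicate 3, Kcnc4 had a difference of -0.72 and an adjusted p of 0.0477.

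Kcns1, a silent subunit singled out after its values were seen, had the lowest p of the genes higher in EAE, at 5.60, 5.68 and 5.61 against 5.33, 5.14 and 5.29 in OVA (0.38 ± 0.085, limma adjusted p = 0.0714). Kcnq1, known from heart and epithelia, was at 6.30 to 6.36 in EAE and 6.31 to 6.88 in OVA (-0.27, adjusted p = 0.419). Its antisense partner Kcnq1ot1, a long noncoding RNA that is not among the 91 genes, was at 9.11 to 9.29 in EAE and 9.28 to 9.58 in OVA (-0.22, adjusted p = 0.339). Whether the counting used strand was not given in the sources used here, so reads of overlapping genes on opposite strands may not be separated. Of the 73 genes, 36 overlap a gene on the opposite strand and 8 overlap a protein-coding gene.

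**Figure D3:**
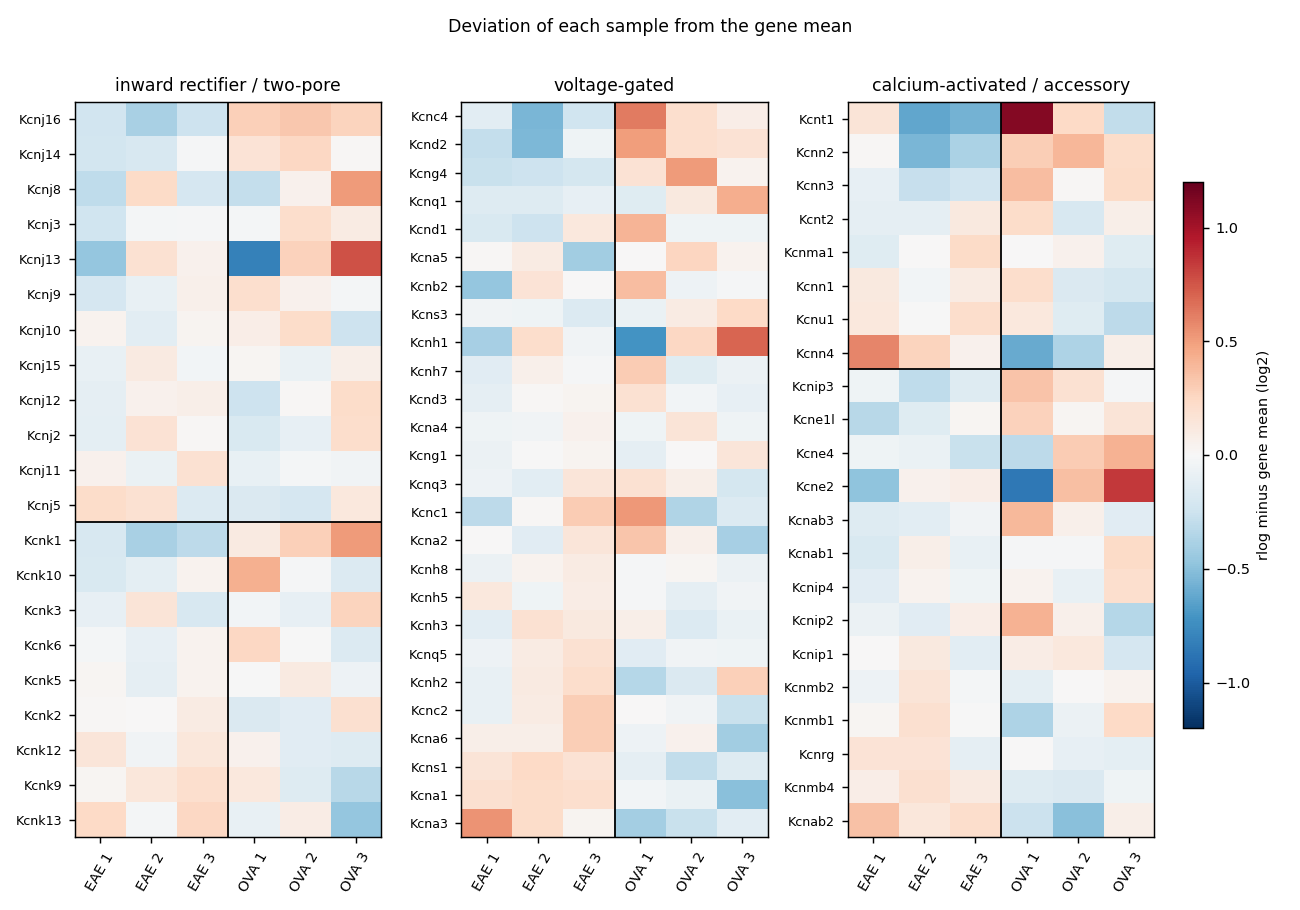
Deviation of each sample from the gene's mean over 6 samples, on the rlog (log2) scale, for 69 of the 73 tested genes, with samples in columns (EAE left of the line, OVA right) and genes in rows, ordered within each subfamily by the difference of EAE minus OVA. Red is above and blue below the mean. Kcnj16 and Kcnk1 are blue in all 3 EAE pools and red in all 3 OVA samples, while Kcnj13, Kcnh1 and Kcne2 differ most between OVA replicates 1 and 3.

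None of the 14 tested accessory genes passed the limma test. At an unadjusted limma p under 0.05, 2 were higher (Kcnab2 and Kcnmb4) and 2 lower (Kcnip3 and Kcne1l). That was 14.3% in each direction, against 9.17% higher and 7.15% lower among all tested genes. Kcnab2 encodes a cytoplasmic subunit of Kv1 channels. It was at 9.10, 8.89 and 8.96 in EAE and 8.49, 8.24 and 8.82 in OVA, above OVA in every pool, with OVA replicate 3 close below (0.46 ± 0.150, adjusted p = 0.180). Without OVA replicate 3 the difference was 0.61 with an adjusted p of 0.0218, and the gene overlaps Nphp4 on the opposite strand. Kcnip3, a calcium-binding subunit of Kv4 channels that is also known as a transcriptional repressor, was at 10.14, 9.88 and 10.04 in EAE and 10.53, 10.38 and 10.18 in OVA (-0.34, adjusted p = 0.181). The groups did not overlap, and without OVA replicate 3 the adjusted p was 0.0414.

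The X chromosome holds Kcnd1, a pore of the A-type current, and Kcne1l, a small membrane subunit also called Kcne5. Their differences were -0.21 (limma adjusted p = 0.577) and -0.31 (adjusted p = 0.257), and Kcne1l was at 5.51 to 5.86 in EAE and 5.87 to 6.12 in OVA. Neither passed the test, and the groups overlapped for Kcnd1 but not for Kcne1l. The X-linked transcript Xist differed widely between the same samples, and the part of sex in the values of these genes was not tested.

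Kcne2, Kcnj13 and Kcnh1 varied together across the samples. Kcne2 encodes a small subunit and Kcnh1 a voltage-gated pore, and Kcne2 and Kcnj13 are known from choroid plexus epithelium. Kcne2 was at 9.60, 10.13 and 10.15 in EAE and 9.22, 10.44 and 10.93 in OVA. Kcnh1 was at 7.99, 8.60 and 8.35 in EAE and 7.67, 8.64 and 9.08 in OVA. Like Kcne2 and Kcnj13, it was lowest in OVA replicate 1 and highest in OVA replicate 3. Other members, Kcnj2, Kcnk2, Kcnmb1 and Kcnh2 among them, had the same lowest and highest samples. OVA replicate 1 was the lowest sample for 15 of the 73 genes (20.5%, against 24.2% of all tested genes). The mean of 8 ependymal and choroid plexus markers was lowest, 11.23, in OVA replicate 1 and highest, 12.28, in OVA replicate 3, with 11.86 to 12.08 in EAE. Its members differed: the 4 choroid plexus genes were each lowest in OVA replicate 1 and highest in OVA replicate 3, whereas the 4 ependymal genes were each higher in all EAE pools than in any OVA sample, none past the test. The part of these cells in the values was not tested, and the 3 genes did not pass the test (Kcne2 -0.23, limma adjusted p = 0.818; Kcnh1 -0.15, 0.867).

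**Figure D4:**
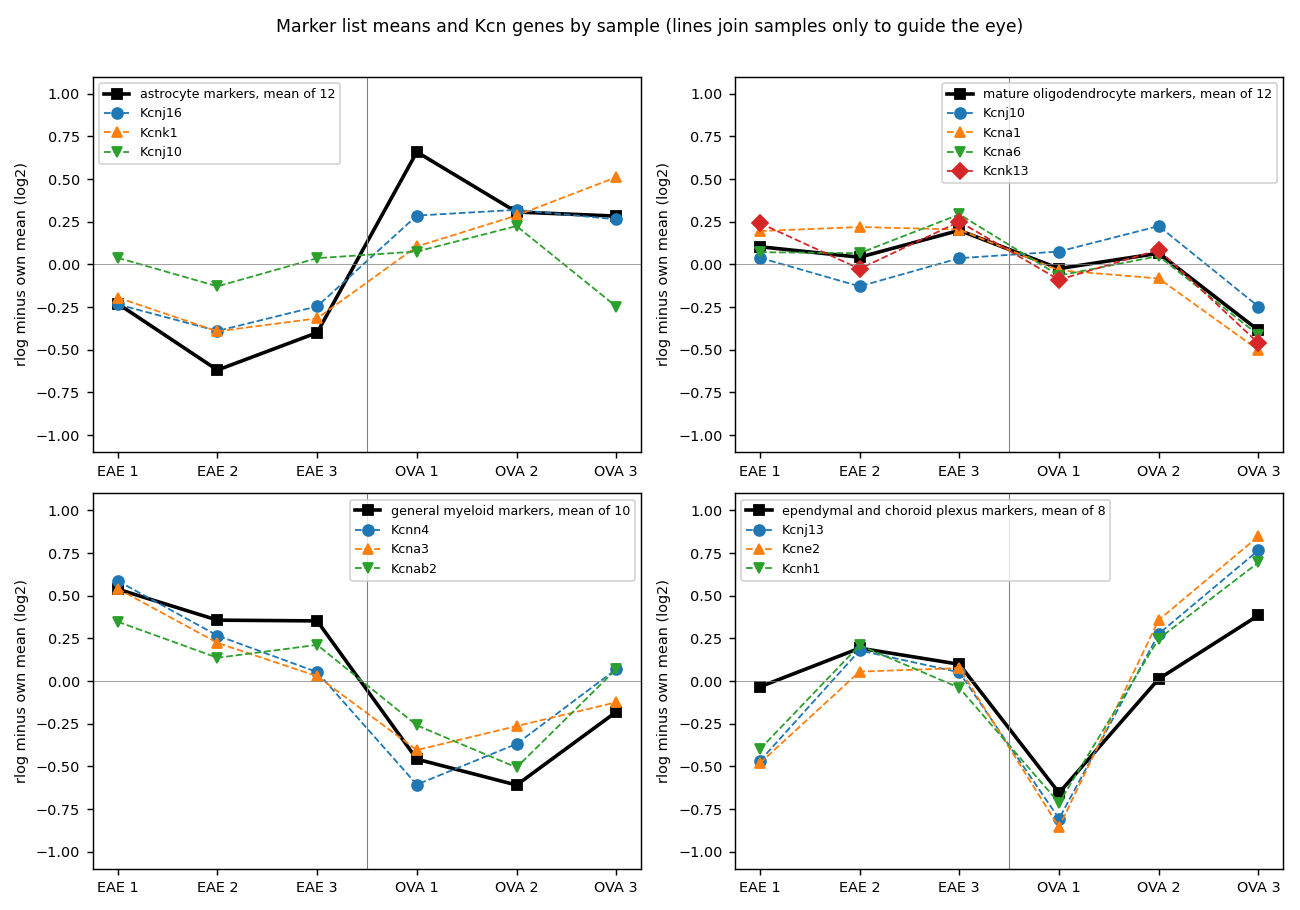
Marker list means (black squares) and potassium channel genes (coloured) in the 6 samples, each as rlog (log2) minus its own mean, for astrocyte, mature oligodendrocyte, general myeloid, and ependymal and choroid plexus markers. Lines join samples only to guide the eye. Endothelial, homeostatic microglia, and pericyte and smooth muscle markers, which also all differed below 0, are not drawn. Kcnj16 and Kcnk1 lie below 0 in EAE and above 0 in OVA as do the astrocyte markers. Kcnj13, Kcne2, Kcnh1 and the mean of the ependymal and choroid plexus list are lowest in OVA replicate 1 and highest in replicate 3. Other potassium channel genes with the same lowest and highest samples are not drawn.

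Other genes of potassium handling were read from 4 lists. Of the 7 partners of glial potassium buffering, 4 fell in the limma test and none rose: Gja1, a gap junction protein (-0.91, adjusted p = 0.00725), Slc1a3 and Slc1a2, glutamate transporters (-0.85, 0.0228 and -0.94, 0.0404), and Aqp4, a water channel (-0.55, 0.0234). The median of the list was -0.85, and these 4 genes are also astrocyte markers. Gjb1, a gap junction protein of oligodendrocytes, differed by 0.23 and did not pass the test. The share that fell among all tested genes was 0.666%.

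Of 15 sodium-potassium pump subunits and cotransporters, 2 fell and none rose, with a median of -0.05. Atp1b2, a beta subunit of the pump that is abundant in glia, was at 14.09, 13.90 and 13.93 in EAE and 14.89, 14.65 and 14.56 in OVA. The groups did not overlap, and the difference was -0.73 ± 0.121 (limma adjusted p = 0.0286). Of 22 tested channel partners without a Kcn symbol, Lgi1, a secreted protein that acts on Kv1 channels, fell by 0.61 (adjusted p = 0.0237), none rose, and the median was -0.02. None of the 4 Hcn genes, pacemaker channels that carry sodium and potassium, passed the test (median 0.06). Each of these 7 falls, 4 of buffering partners included, missed the threshold when at least 1 sample was left out, and without EAE replicate 2 all 7 missed it.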

How the data were processed

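RNA of O4-bead cells from 3 EAE pools and 3 OVA samples was measured. The authors deposited 1 table of rlog values, on a log2 scale, per gene and sample, with groups taken from the treatment labels. The TruSeq Stranded mRNA kit was used for the libraries, per the labels' protocols. DESeq2 1.24.0, STAR 2.6.1c, Subread 1.6.1, cutadapt 1.18, bcl2fastq 2.17 and the build GRCm38 are listed in the submitters' processing notes, without role or order. Whether rlog used the groups, the annotation release and strand use were not given in the sources used here.

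Of 55298 identifiers, 55117 (99.7%) matched GENCODE M21, which gave symbols, gene types, positions (GRCm38, 1-based) and exon lengths. Tested genes were those with a mean rlog value of at least 3 (18161), and 25244 genes held 0 in every sample. EAE was compared with OVA by limma 3.58.1 in R 4.3.3 with an intensity trend, two-sided, adjusted by Benjamini-Hochberg over all 18161 genes at 0.05. On simulated data with 18161 genes, this recovered 48% of genes changed by 0.5, 96% by 1 and 100% by 2 or 3 on the log2 scale. Each simulated gene had the same spread in all 6 samples.

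Named genes were all Kcn genes past the threshold, the 3 with the largest absolute difference and the 2 with the highest level per length in each subfamily, and a fixed list of 19 genes. Among the genes described in the main results, Kcng4, Kcnh1, Kcnj3, Kcnj5, Kcnj9 and Kcns1 were not selected by this rule. The members and all lists were chosen with earlier results of these data known. Alternatives were other filters, no trend, robust moderation, sample weights, a common median, protein-coding genes alone, and leaving out each sample. They were listed at the outset for the potassium channel genes, and for the partner lists and all genes they were chosen after seeing the data. The values of some genes are not reported here, and these genes are left out of the figures.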

Additional observations from a re-analysis of the deposited data

How the results depend on the processing

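For 28 named genes, 202 of 221 values under the 8 settings that keep all samples kept their direction and their side of the threshold, as did 145 of 168 when 1 sample was left out. The number of potassium channel genes that fell was 1 in place of 2 with no filter on low values and with no intensity trend, Kcnk1 missing the threshold in both. With array quality weights 10 rose and 15 fell, among the partner lists 6 rose and 11 fell, and 5091 of all genes passed in place of 433, but the weights did not converge and gave OVA replicate 2 a weight of 8.85 against 0.275 and 0.222 for OVA replicates 1 and 3. With weights by number of mice 1 potassium channel gene (Kcns1) and 1 gene of the partner lists rose.

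With each sample left out in turn, 0 to 5 potassium channel genes fell and 0 to 2 rose. The 5 and the 2 came without OVA replicate 3 (Kcnc4, Kcng4 and Kcnip3 fell besides Kcnj16 and Kcnk1, and Kcnab2 and Kcnn4 rose). In that setting 850 of all 18161 tested genes rose and 346 fell, against 312 and 121 with all samples. No potassium channel gene fell when EAE replicate 1 or 2 or OVA replicate 2 was left out. The partner lists had 0 to 9 falls and 0 to 1 rise, and 25 to 1196 of all genes passed, the extremes being without EAE replicate 2 and without OVA replicate 3. The median difference of the potassium channel genes lay between -0.06 and 0.0022.

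Signs turned for genes that never passed the test. With array weights Kcna2 was at -0.073 and Kcnma1 at -0.024, and Kcna2 was at -0.0094 with mouse weights and -0.017 with a common median. Over the samples left out in turn, values ran from -0.60 to 0.19 for Kcnj13, -0.17 to 0.068 for Kcnj10, -0.031 to 0.17 for Kcnj2, -0.19 to 0.17 for Kcna2, -0.039 to 0.15 for Kcnma1, -0.15 to 0.0605 for Kcnk6, -0.38 to 0.021 for Kcnj8 and -0.72 to 0.13 for Kcne2. The cause was not tested. No paired analysis was possible because the labels number no replicates, so the numbers used here only name samples, and the groups hold different mice. Unknown depth and 3 samples a group limit what could be detected. In the simulation, genes changed by 0.5 were recovered in 48% of cases. The simulation gave all 6 samples of a gene an equal spread and covered all tested genes. The median SE was 0.125 for the tested potassium channel genes and 0.101 for all tested genes, so the 48% need not hold for this family.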

Other observations

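Members not described above, chosen here after their values were seen, add to the description of the family. Among the subunits of the M current, which damps repetitive firing, Kcnq3 was at 11.82 to 12.09 in EAE and 11.73 to 12.12 in OVA (-0.02 on the rlog scale, limma adjusted p = 0.950) and Kcnq5 at 5.63 to 5.87 and 5.55 to 5.65 (0.15, 0.476). Among the fast delayed rectifiers, Kcnc1 and Kcnc2 differed by 0.0054 and 0.20, with adjusted p of 0.995 and 0.488. Kcnh2, the gene of the rapid delayed rectifier of the heart, was highest in OVA replicate 3 and lowest in OVA replicate 1, at 8.99 and 8.36, with 8.62 to 8.92 in EAE.

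Kcnma1, Kcnmb1 and Kcnmb4, subunits of large-conductance channels, all lay above 0, and none passed the test. Kcnmb4 was at 6.04 to 6.15 in EAE and 5.79 to 5.91 in OVA, without overlap (0.25, limma adjusted p = 0.209). Kcnmb1, known from smooth muscle, was at 9.15 to 9.35 and 8.78 to 9.39, with overlap (0.14, adjusted p = 0.693). Kcnmb1 was lowest in OVA replicate 1 and highest in OVA replicate 3, and pericyte and smooth muscle markers were at 11.03 and 11.76 in those samples. The same markers were at 10.89 to 11.29 in EAE, and all 8 lay below 0 (median -0.35), whereas Kcnmb1 lay above 0. The part of these cells was not tested. Kcnu1, known as a sperm channel, had values of 6.85 to 7.37 in all 6 samples (0.22, 0.470). Kcna5, Kcna1 and Kcna6, neighbours on chromosome 6, differed by -0.20, 0.41 and 0.29, none past the test.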
